A study of Mus musculus with 8 samples.

Results

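The 35 genes described here encode proteins of homologous recombination and of the Fanconi anemia pathway, the damage-sensing kinases that control them, and the nucleases and helicases that act beside them. They were taken by symbol from a table of exon counts for 39017 mouse genes, in which all 35 were found, and all 35 passed the filter on low counts that left 15816 genes for testing. The cells were satellite cells, the resident stem cells of muscle, isolated from diaphragm and abdominal muscle of adult Pax3GFP/+ mice, which carry a green fluorescent protein reporter at the Pax3 locus. They were plated at 7500 cells per 35 mm dish and grown for 4 days either in sal003, an inhibitor of eIF2α dephosphorylation, at 10 µM, or in the vehicle DMSO. Each condition had 4 libraries, the Pax3GFP/+ genotype was common to all 8, and no label ties the replicates to separate animals or dishes, so p-values measure the spread between these libraries, which may be technical. The comparison asks how much RNA of each repair gene the cultures held with and without the inhibitor.

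Homologous recombination repairs broken DNA by copying an intact sister chromatid, and it works mainly in S and G2 phase, when a sister is at hand. The MRN complex binds the break and activates the kinase ATM, nucleases trim the ends to single strands that activate ATR and CHK1, and BRCA1, PALB2 and BRCA2 with their mediators set up the exchange of strands with the sister. The Fanconi core complex attaches ubiquitin to the FANCD2 and FANCI pair where crosslinks block a replication fork, and structure-specific endonucleases such as MUS81-EME1 cut the joined molecules that remain. Many of these genes are transcribed mostly in cycling cells, and satellite cells in culture either cycle as myoblasts or leave the cycle to fuse.

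Libraries held 32753929 to 40234107 counts in DMSO and 37248830 to 39378523 in sal003. DMSO replicate 2 stood apart, with 14437 genes detected against 16561 to 18076 in the others and a Spearman correlation of at most 0.949 with the other DMSO libraries, so values that it moves most are given with and without it. The myogenic markers Myod1 (896 ± 85.8 CPM in DMSO and 892 ± 52.3 CPM under sal003; SD, n = 4), Des and Pax7 were present in both conditions. Of 8 satellite cell and myoblast markers 1 rose and 3 fell: Pax7 went from 72.1 ± 6.74 to 97.2 ± 2.54 CPM, Des from 2941 ± 224 to 1171 ± 40.7 CPM, Cdh15 from 227 ± 20.3 to 120.1 ± 13.1 CPM and Itga7 from 444 ± 47.8 to 300.3 ± 24.2 CPM. Summed CPM (counts normalised to library depth and scaled between libraries) were between 0.543 and 5.23 over 8 fibro-adipogenic markers and between 2.16 and 5.82 over 7 leukocyte markers, with Dcn, Lum, Dpt, Mfap5, Ptprc, Lyz2 and Cd3e at 0 in every library. The 8 endothelial markers summed to 9.44 to 12.5 CPM in DMSO and 5.76 to 9.28 CPM under sal003, with Emcn and Cldn5 at 0. Of the 4 that were tested 1 fell, Vwf, from 8.33 ± 1.16 to 2.98 ± 0.592 CPM. A list of 8 smooth muscle and pericyte markers summed to 1817 to 2010 CPM in DMSO and 596 to 778 CPM under sal003. Most of these sums was Acta2, which myogenic cells also express. Of the 6 markers that were tested 0 rose and 4 fell, namely Acta2, Abcc9, Notch3 and Cspg4. Abcc9 went from 77.2 ± 3.83 to 15.2 ± 1.14 CPM, Notch3 from 83.9 ± 12.8 to 44.5 ± 5.91 CPM and Cspg4 from 197 ± 32.5 to 149 ± 13.99 CPM. Whether the share of such cells differed between the conditions was not tested.

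Sal003 cultures held more RNA of most of the 35 genes, with an increase close to 2-fold in the middle of the list. Of the 35, 27 rose and 0 fell in edgeR's quasi-likelihood test (adjusted p below 0.05 over all genes tested), and 34 had a positive estimate. Over all tested genes 10.6% rose and 12.2% fell. The count of members lower was 1 at an unadjusted p below 0.05, which was Mus81, and 0 with DESeq2 and with limma-voom. The median log2 fold change of the members was 0.94, against -0.0034 over all genes tested, and the members that rose ranged from 0.62 for Fancd2 to 1.64 for Fancb. All 4 sal003 libraries stood above all 4 DMSO libraries for 28 members, an order found at 13.1% of tested genes, and below them for 1, Mus81, an order found at 13.7%. In a test against a change of at least 1.5-fold, 14 members rose, where 1.68% of tested genes did, and 0 fell, where 4.66% did. Without DMSO replicate 2, 28 members rose and the median was 0.87.

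**Figure D1:**
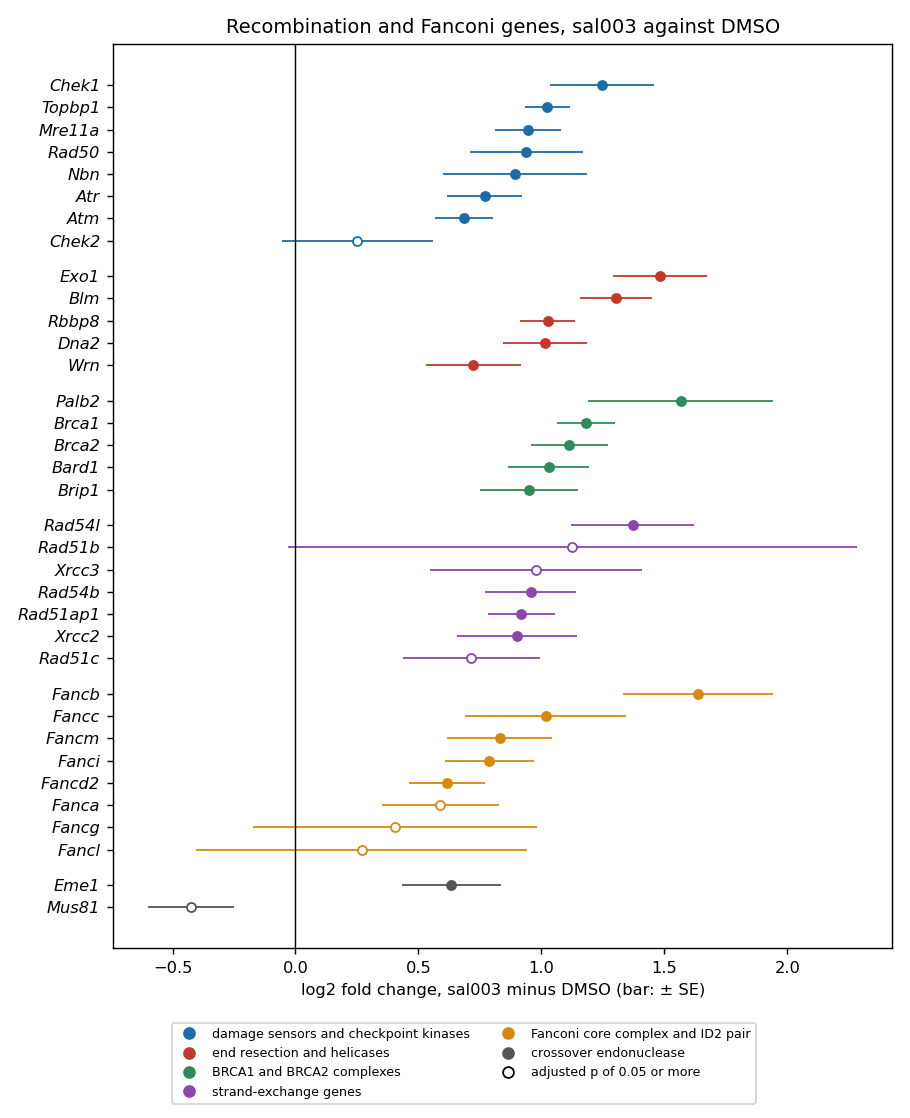
Log2 fold change of each of the 35 genes (x axis, sal003 minus DMSO, bars ± SE from edgeR), grouped and coloured by role, with open symbols for adjusted p of 0.05 or more. Of the 35 points 34 lie to the right of 0, from Chek2 at 0.25 up to Fancb at 1.64, and Mus81 alone lies to the left at -0.42.

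Markers of cycling and of differentiation moved at the same time. Summed over the 35 members, the libraries held 813 to 916 CPM in DMSO and 1583 to 1687 CPM under sal003. A list of 20 proliferation genes, all of which rose, summed to 2429 to 3027 CPM in DMSO and 5565 to 5898 CPM under sal003. Mki67 went from 882 ± 181 to 1866 ± 86.8 CPM and the replication clamp Pcna from 46.1 ± 9.86 to 93.7 ± 3.33 CPM (SD, n = 4). For every 100 CPM of the proliferation list the members held 30.3 to 33.5 CPM in DMSO and 28.0 to 29.6 CPM under sal003, ranges that lie close together without overlapping. The 10 differentiation genes, all of which fell, summed to 54424 to 77319 CPM in DMSO and 15612 to 17914 CPM under sal003. The part of these shifts in the members' values was not tested, and in bulk RNA a larger share of cycling cells and more RNA per cell cannot be told apart.

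The promoters of 4 members that rose are shown. Each holds the core of an E2F site, the element through which E2F factors act on genes of S phase. Having risen and holding the core were the conditions for showing them, so they cannot tell whether the core goes with a rise. They are the first 4, in order of p, that hold an E2F core among the 27 members with a promoter sequence at hand. Rbbp8 and Exo1, which had lower p than Brca2, had no such sequence and were not searched. The sequences are from RefSeq on GRCm38.p6 (mm10), 5′ to 3′ on the strand of the gene, and end at the start of transcription in RefSeq or, where GENCODE starts the gene earlier, at the GENCODE start. They are the windows chr9:103305077-103305214 (plus strand, Topbp1), chr7:80535120-80535248 (minus strand, Blm), chr5:150522371-150522620 (plus strand, Brca2) and chr1:71103147-71103222 (minus strand, Bard1). Capitals mark matches on either strand to the E2F core (spelled TTCCCGC, otherwise TTCGCGC, otherwise TTGCCGC, otherwise TTGGCGC), to the CHR element of late cell cycle genes (spelled TTCGAA, otherwise TTTGAA) and to the CCAAT box.
Topbp1: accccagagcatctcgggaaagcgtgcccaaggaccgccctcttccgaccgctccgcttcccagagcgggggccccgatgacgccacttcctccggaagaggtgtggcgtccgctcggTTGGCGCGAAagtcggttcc
Blm: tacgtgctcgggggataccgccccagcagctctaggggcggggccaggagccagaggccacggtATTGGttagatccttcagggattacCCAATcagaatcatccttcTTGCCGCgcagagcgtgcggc
Brca2: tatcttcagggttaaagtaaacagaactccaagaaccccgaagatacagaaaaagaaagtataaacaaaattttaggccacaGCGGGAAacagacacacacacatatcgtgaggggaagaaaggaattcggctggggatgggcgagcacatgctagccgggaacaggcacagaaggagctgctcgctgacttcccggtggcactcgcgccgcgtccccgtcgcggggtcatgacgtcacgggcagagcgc
Bard1: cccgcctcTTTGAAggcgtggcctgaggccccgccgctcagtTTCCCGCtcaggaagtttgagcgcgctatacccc
The capitals in Topbp1 are 2 E2F cores on opposite strands that overlap. Blm holds 1 E2F core and 2 CCAAT boxes, Brca2 has 1 E2F core on the opposite strand, and Bard1 has 1 E2F core and 1 CHR element.

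Promoter sequences from RefSeq were at hand for 27 of the 35 members. The other 8 (Rad50, Nbn, Rbbp8, Exo1, Wrn, Xrcc2, Rad54b and Fancd2) all rose and were not searched. A gene was counted if any of its promoters held the motif. In the 250 bases before the start, 9 of these 27 held an E2F core (33.3%), against 9.01% of all 27025 genes with a promoter. The share was 16.5% of the tested genes that had a promoter and 24.3% of all such genes that rose. Among the members, the core was present in 6 of the 19 that rose and in 3 of the 8 that did not pass. The CCAAT box was found in 14 of the 27 members (37.5% of all genes with a promoter, 40.6% of tested genes). The CHR element was found in 2, Atr and Bard1 (19.6% of all genes with a promoter, 14.1% of tested genes). Brca1, Chek1 and Dna2, which rose, held no E2F core in this window, while Chek2 and Fancg, which did not pass, each held 1. A match describes these letters only, and no binding was measured.

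Among the 8 damage sensors and checkpoint kinases, 7 rose and Chek2 did not pass (median 0.92). Topbp1 encodes the scaffold that switches on ATR (ENSMUSG00000032555, chromosome 9, 103305215 to 103350428, plus strand of mm10). Its level was 141, 133, 113 and 132 CPM in DMSO replicates 1 to 4 and 265, 278, 246 and 265 CPM in sal003 replicates 1 to 4. The groups were far apart, and the log2 fold change of 1.02 ± 0.09 (SE, edgeR adjusted p = 6.25e-07) had the lowest p of the members with all libraries in the fit. ATM and ATR, the kinases at the head of the response to breaks and to stalled forks, shifted less. Atm went from 92.9 ± 16.7 to 149 ± 8.29 CPM (0.69 ± 0.12 by edgeR, adjusted p = 0.000509). Atr went from 29.3 ± 3.13 to 49.96 ± 8.61 CPM (0.77 ± 0.15, adjusted p = 0.00148).

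The effector kinases had unlike estimates. Chek1, the target of ATR that holds S and G2 phase, read 9.14, 11.0, 7.35 and 7.29 CPM in DMSO and 19.2, 20.7, 19.9 and 22.7 CPM under sal003, a log2 fold change of 1.25 ± 0.21 by edgeR (adjusted p = 0.000395). Chek2, the target of ATM, read 4.28, 8.18, 5.85 and 5.60 CPM in DMSO and 7.13, 6.22, 7.67 and 7.46 CPM under sal003. Its groups overlapped through DMSO replicate 2, the highest of the 8, and the estimate was 0.25 ± 0.31 (adjusted p = 0.659), or 0.45 without that library (adjusted p = 0.314) and 0.13 without DMSO replicate 1.

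The 3 subunits of the MRN complex, which tethers broken ends, all rose. Mre11a, the nuclease subunit, went from 29.6 ± 3.61 to 57.03 ± 4.19 CPM (0.94 ± 0.13, edgeR adjusted p = 7.47e-05; 0.87 without DMSO replicate 2). Rad50, the coiled-coil ATPase of the complex, was at 61.7, 29.7, 76.4 and 69.6 CPM in DMSO and 108, 120.2, 114 and 114 CPM under sal003. DMSO replicate 2 was low for Rad50, and the log2 fold change of 0.94 ± 0.23 by edgeR (adjusted p = 0.0114) became 0.73 without it (adjusted p = 5.99e-06); with no filter on low counts the adjusted p was 0.0561. Nbn, the subunit that recruits ATM, read 12.5, 5.93, 20.95 and 12.6 CPM in DMSO and 21.9, 29.1, 20.4 and 25.0 CPM under sal003. DMSO replicate 3 reached into the sal003 range, and the call on Nbn (0.89 ± 0.29, adjusted p = 0.0400) was lost in 6 of 8 fits with a library removed. It held without DMSO replicate 2 (0.67, adjusted p = 0.0196) and without DMSO replicate 3 (1.23, adjusted p = 0.00486). Adjusted p was 0.0917 without DMSO replicate 1, 0.0829 without DMSO replicate 4, and 0.0666, 0.119, 0.0540 and 0.0881 without sal003 replicates 1, 2, 3 and 4.

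**Figure D2:**
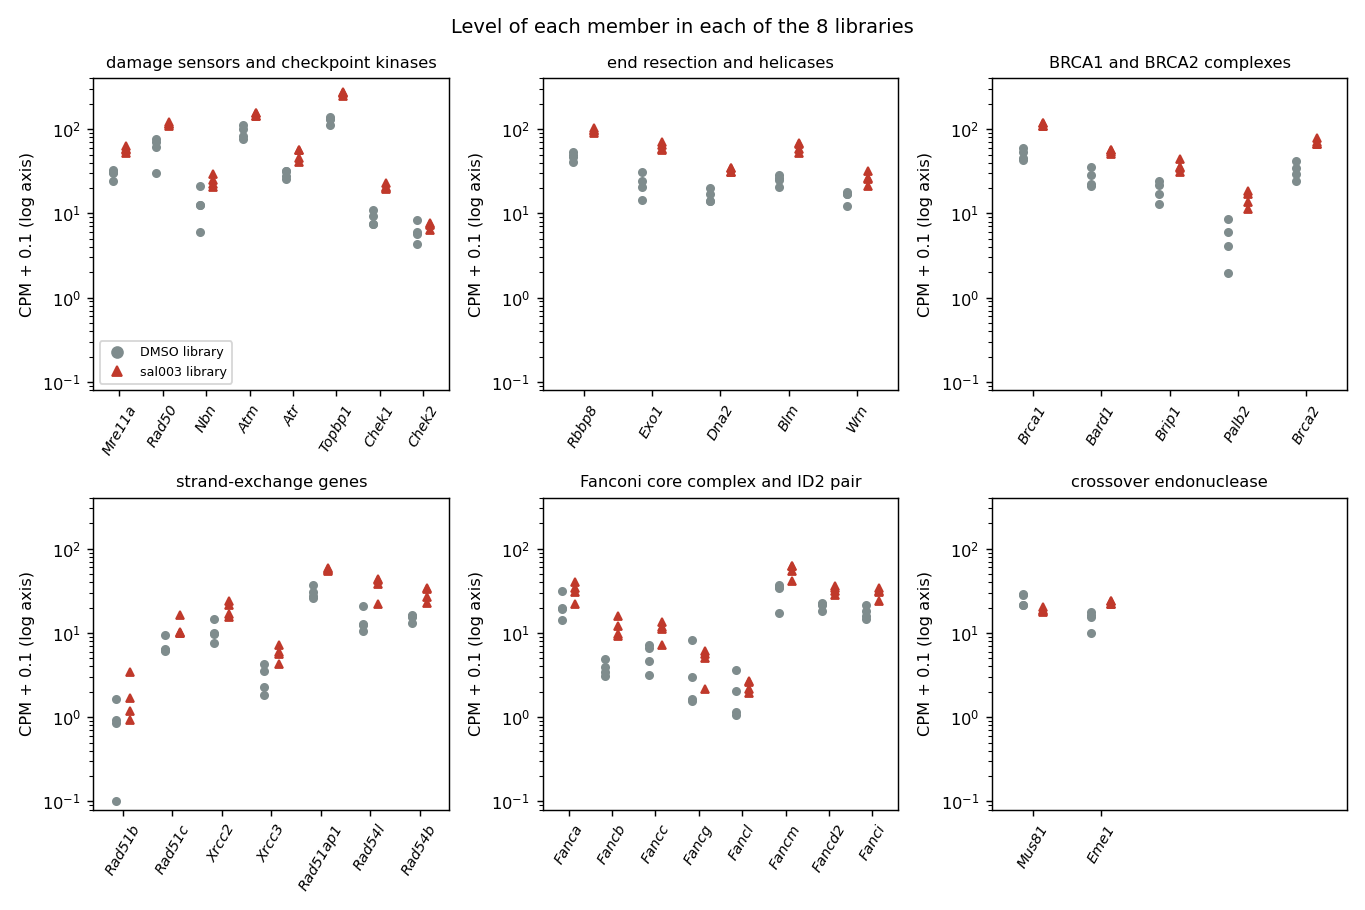
Level of each member in each library, as CPM + 0.1 on a log axis, in 6 panels by role, with grey circles for the 4 DMSO libraries and red triangles for the 4 sal003 libraries. The triangles lie above every circle for 28 members, overlap the circles for 6 and lie below them for Mus81.

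All 5 genes of end resection and its helicases rose (median 1.03). Exo1, the nuclease that extends resection, had the largest estimate of this group with all libraries in the fit (ENSMUSG00000039748, chromosome 1, 175880581 to 175913489, plus strand). It stood at 24.3, 14.3, 20.4 and 30.5 CPM in DMSO and at 64.2, 70.3, 56.9 and 58.7 CPM under sal003, a log2 fold change of 1.48 ± 0.19 by edgeR (adjusted p = 3.21e-05; 1.33 without DMSO replicate 2). Blm, the helicase lost in Bloom syndrome, which both resects ends and dissolves joined molecules, read 28.7, 20.3, 25.9 and 24.9 CPM in DMSO and 66.7, 58.6, 68.9 and 51.8 CPM under sal003. The lowest sal003 library held 51.8 CPM of Blm against 28.7 CPM in the highest DMSO library (log2 fold change 1.30 ± 0.15, adjusted p = 7.82e-06). Rbbp8, which encodes the CtIP protein that starts resection, went from 47.4 ± 5.13 to 96.5 ± 5.75 CPM. Dna2, a nuclease of the long-range step, went from 16.1 ± 2.79 to 32.6 ± 2.03 CPM. Wrn, the Werner syndrome helicase, changed least in this group, from 15.9 ± 2.65 to 26.3 ± 4.51 CPM (0.72 ± 0.19, adjusted p = 0.0122), and did not pass without sal003 replicate 1, its highest library (0.62, adjusted p = 0.0601).

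All 5 genes of the BRCA1 and BRCA2 complexes rose too (median 1.11). Brca1 encodes the ubiquitin ligase that promotes resection and recruits PALB2 (ENSMUSG00000017146, chromosome 11, 101488764 to 101551955, minus strand). Its level was 42.9, 53.7, 44.9 and 59.2 CPM in DMSO and 118, 109.9, 108 and 119 CPM under sal003, a log2 fold change of 1.18 ± 0.12 by edgeR (adjusted p = 2.31e-06). The sal003 libraries were close to each other and well above DMSO. Brca2, which sets up strand exchange, read 24.2, 34.3, 29.6 and 41.5 CPM in DMSO and 65.7, 77.8, 66.0 and 70.9 CPM under sal003 (1.11 ± 0.16, adjusted p = 6.42e-05). Palb2, the bridge between the BRCA proteins, was low in DMSO, at 4.03, 1.84, 5.88 and 8.36 CPM, and reached 13.6, 18.3, 16.7 and 11.0 CPM under sal003. Its estimate, 1.57 ± 0.38 (adjusted p = 0.00618), was among the largest but had a wide error, and it was 1.30 without DMSO replicate 2. Bard1, the obligate partner of BRCA1, went from 26.7 ± 6.72 to 54.6 ± 3.002 CPM (1.03 ± 0.17, or 1.21 without DMSO replicate 2), and Brip1, the helicase bound by BRCA1, from 18.8 ± 4.998 to 36.2 ± 5.43 CPM.

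Of the 7 strand-exchange genes 4 rose, and the 3 that did not pass were Rad51b, Rad51c and Xrcc3 (median of the 7, 0.96). Rad54l, a DNA motor of strand invasion, read 20.8, 10.4, 12.5 and 12.4 CPM in DMSO and 42.0, 43.3, 21.7 and 38.1 CPM under sal003. Replicate 3 of sal003 lay only just above DMSO replicate 1, yet the log2 fold change of 1.37 ± 0.25 passed (edgeR adjusted p = 0.000761). Its relative Rad54b went from 15.04 ± 1.44 to 29.2 ± 5.60 CPM (0.96 ± 0.18), but 35.9% of its exon bases are shared with another gene, mostly Fsbp on the same strand, so its reads are uncertain. Rad51ap1, which stimulates strand invasion, went from 30.1 ± 4.71 to 56.8 ± 2.04 CPM (0.92 ± 0.14, adjusted p = 0.000116). Among the mediators of strand exchange, Xrcc2 rose from 10.4 ± 2.98 to 19.5 ± 4.04 CPM (0.90 ± 0.24, adjusted p = 0.0133). Xrcc2 did not pass without sal003 replicate 1 (0.78, adjusted p = 0.0605).

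The other 3 mediators did not pass. Rad51c stood at 6.14, 6.35, 6.05 and 9.39 CPM in DMSO and at 16.2, 10.1, 9.75 and 9.83 CPM under sal003. These groups did not overlap, but the estimate of 0.72 ± 0.28 did not pass (edgeR adjusted p = 0.0836). It passed in 1 of the 8 fits with a library removed, without DMSO replicate 4 (0.91, adjusted p = 0.0437), and was lowest without sal003 replicate 1, its highest library (0.51, adjusted p = 0.328). Xrcc3 went from 2.85 ± 1.11 to 5.62 ± 1.16 CPM (0.98 ± 0.43, adjusted p = 0.128). Rad51b, at 0 to 1.53 CPM in DMSO and 0.827 to 3.31 CPM under sal003, had an estimate of 1.13 ± 1.16, which was 1.69 without DMSO replicate 1, 0.73 without DMSO replicate 2 and 0.59 without sal003 replicate 1.

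Of the 8 Fanconi genes 5 rose and 3 did not pass (median 0.70), and all 8 estimates were positive. The core complex subunit Fancb had the largest estimate of the 35 with all libraries in the fit (ENSMUSG00000047757, chromosome X, 164980592 to 164997272, plus strand). It stood at 3.32, 3.80, 2.997 and 4.76 CPM in DMSO and at 8.996, 9.68, 11.9 and 15.8 CPM under sal003, a log2 fold change of 1.64 ± 0.31 by edgeR (adjusted p = 0.000871). The estimate of Palb2 was larger than that of Fancb without DMSO replicate 3 or 4, without sal003 replicate 4 and with the replicate block, those of Rad51b and Rad54l were larger without DMSO replicate 1, and that of Exo1 without sal003 replicate 4. Fancl, the ubiquitin ligase of the core complex, and Fancg, an adaptor subunit, did not pass. Fancl was at 0.949 to 3.52 CPM in DMSO and 1.81 to 2.56 CPM under sal003 (0.27 ± 0.67, adjusted p = 0.853), and its estimate was 0.058 without DMSO replicate 2, 0.083 without DMSO replicate 3 and 0.79 without DMSO replicate 4. Fancg read 2.91, 8.07, 1.47 and 1.55 CPM in DMSO and 2.06, 4.89, 6.02 and 5.56 CPM under sal003. DMSO replicate 2 was the highest library for Fancg, and its estimate of 0.40 ± 0.58 became 1.24 without it (adjusted p = 0.0578). It was 0.16 without DMSO replicate 3, 0.17 without DMSO replicate 4, 0.65 without sal003 replicate 1 and 0.26 with sal003 replicate 3 left out.

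Fanca, another core subunit, depended on the same library. It read 19.7, 31.7, 19.0 and 14.05 CPM in DMSO and 40.3, 33.9, 30.8 and 22.1 CPM under sal003, with an estimate of 0.59 ± 0.24 (edgeR adjusted p = 0.0972). Fanca passed without DMSO replicate 2 (0.87, adjusted p = 0.00168), without sal003 replicate 4 (0.73, adjusted p = 0.0474), with limma-voom (0.84, adjusted p = 0.00244) and with the replicate number as a block (0.62, adjusted p = 0.0310). It did not pass in the other 6 fits with a library removed, where the estimate went down to 0.45 (without DMSO replicate 4, adjusted p = 0.219) and adjusted p up to 0.289, nor under the other settings run. Fancc, also of the core, rose from 5.30 ± 1.84 to 10.7 ± 2.60 CPM (1.02 ± 0.33, adjusted p = 0.0341; 0.84 without DMSO replicate 2), and 18.6% of its exon bases are shared with genes on the opposite strand. That call was lost without DMSO replicate 3 (adjusted p = 0.0781) and without sal003 replicates 1, 2 and 4 (0.122, 0.0807 and 0.0847). With at least 10 CPM required in 4 libraries, Fancb and Fancc left the test. Fancm, the motor that anchors the core complex to DNA, went from 30.8 ± 9.05 to 54.8 ± 9.97 CPM (0.83 ± 0.21, adjusted p = 0.0108). It was lowest in DMSO replicate 2, and its estimate without that library was 0.65 (adjusted p = 0.0015).

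The FANCD2 and FANCI pair that the core complex modifies rose modestly. Fancd2 read 22.6, 21.97, 18.3 and 21.4 CPM in DMSO and 31.0, 36.0, 28.3 and 33.9 CPM under sal003, and its 0.62 ± 0.16 (edgeR adjusted p = 0.00854) was the smallest estimate among the members that rose. Fanci went from 17.5 ± 2.98 to 30.1 ± 4.195 CPM (0.79 ± 0.18, adjusted p = 0.00445).

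The endonuclease pair that cuts joined DNA molecules was split. Eme1, the regulatory subunit (ENSMUSG00000039055, chromosome 11, 94644996 to 94653964, minus strand), read 10.0, 17.6, 15.5 and 16.1 CPM in DMSO and 23.8, 23.9, 22.1 and 22.2 CPM under sal003. Mus81, the catalytic subunit (ENSMUSG00000024906, chromosome 19, 5482345 to 5488402, minus strand), read 28.9, 28.2, 21.5 and 21.1 CPM in DMSO and 18.6, 17.4, 20.2 and 18.1 CPM under sal003. So every sal003 library was above DMSO for Eme1 and below it for Mus81. The log2 fold change of Eme1 was 0.63 ± 0.20 (edgeR adjusted p = 0.0311), and that of Mus81 was -0.42 ± 0.17 and did not pass (adjusted p = 0.101, between 0.0897 and 0.267 over the fits that left out 1 library). The Eme1 call held without DMSO replicate 2 or 4 and was lost in the other 6 such fits. Its adjusted p was 0.0726 without DMSO replicate 1, 0.0526 without DMSO replicate 3, and 0.0809, 0.0843, 0.0618 and 0.0576 without sal003 replicates 1, 2, 3 and 4.

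Partner genes were compared within each library as ratios of RPKM, the CPM per kilobase of annotated exon, for 7 pairs chosen with their values known. The ratio of Eme1 to Mus81 was 0.447, 0.808, 0.927 and 0.984 in DMSO and 1.65, 1.77, 1.41 and 1.58 in sal003. Chek1 over Chek2 was 1.38, 0.868, 0.813 and 0.842 in DMSO and 1.74, 2.15, 1.68 and 1.97 in sal003. These 2 ratios did not overlap between the conditions. Each had p = 0.0286 in a two-sided exact permutation test, the smallest that 4 against 4 allows. Benjamini-Hochberg adjustment over the 7 made it 0.1. The Eme1 to Mus81 ratio had to separate, since every sal003 library was above DMSO for Eme1 and below it for Mus81. With pairs chosen by known values, these p-values are no independent support. The MRN ratios overlapped between the conditions, with Nbn over Rad50 at 0.455 ± 0.0873 in DMSO and 0.449 ± 0.0557 in sal003 and Mre11a over Rad50 at 0.497 ± 0.171 and 0.455 ± 0.0442 (SD, n = 4). Bard1 over Brca1, Fancd2 over Fanci and Rad54b over Rad54l also overlapped between the conditions (adjusted exact p of 0.8, 0.6 and 0.6).

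**Figure D3:**
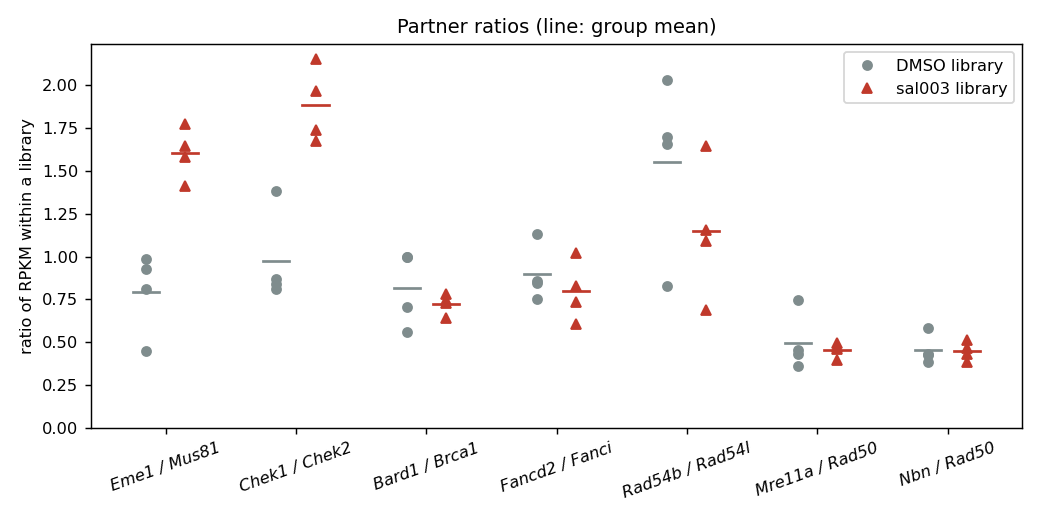
Ratio of RPKM between partner genes (y axis) in each DMSO library (grey circles) and each sal003 library (red triangles), with a line at each group's mean. Eme1 over Mus81 and Chek1 over Chek2 separate the conditions, with sal003 libraries at 1.41 to 1.77 and 1.68 to 2.15, while the other 5 ratios overlap.

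Per kilobase of exon the members spanned a wide range of levels, and all but Mus81 moved by at most 6 places in the order between conditions. Topbp1 was highest in both, at 11.5 ± 1.06 RPKM in DMSO and 23.5 ± 1.19 RPKM in sal003 (SD, n = 4). In DMSO it was followed by Rad50 (11.0 ± 3.84 RPKM) and Atm (8.98 ± 1.62 RPKM), and these neighbours differ by less than their spread. Mus81 was next in DMSO, at 6.99 ± 1.17 RPKM, and in place 16 in sal003, at 5.21 ± 0.334 RPKM, the largest move in the order. Exo1 moved from place 16 (2.66 ± 0.811 RPKM) to place 11 (7.42 ± 0.718 RPKM). Rad51b was lowest in both, at 0.207 ± 0.167 and 0.453 ± 0.297 RPKM. The lengths are unions of all annotated exons, so a gene whose long isoforms are little used can read too low. Atr, with the longest union of the members (23629 bases), was at 1.24 ± 0.132 RPKM in DMSO. The use of isoforms was not measured.

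**Figure D4:**
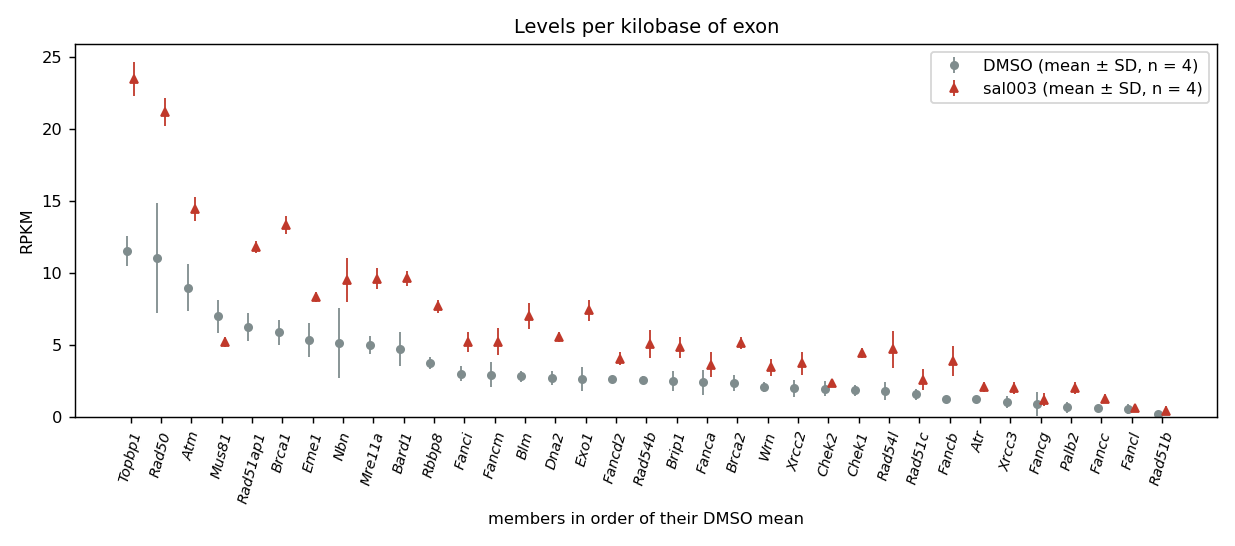
Mean RPKM of each member ± SD (n = 4) in DMSO (grey circles) and sal003 (red triangles), in order of the DMSO mean. Topbp1 and Rad50 lead in both conditions at more than 10 RPKM, and Mus81 is the member whose sal003 mean lies below its DMSO mean.

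A smaller share of the wider pathway rose than of the members (27 of 35), and its median was lower. Members and list were chosen with earlier results of these data known, and the difference was not tested. Of 70 other tested genes of recombination, the Fanconi pathway and fork protection, 26 rose, 1 fell and 43 did not pass. Among all genes tested 10.6% rose and 12.2% fell. The median log2 fold change of the 70 was 0.40. The fork protection genes Timeless (1.49 ± 0.13 by edgeR) and Clspn (1.16 ± 0.14), the end-joining polymerase Polq (1.49 ± 0.15), the chromatin adaptors Rif1 (1.20 ± 0.12) and Mdc1 (0.95 ± 0.11) and Fignl1 (1.15 ± 0.14) had the lowest p. The gene that fell was Trp53bp1, which encodes 53BP1, from 163 ± 2.16 to 127 ± 11.95 CPM (-0.36 ± 0.09, edgeR adjusted p = 0.0102). Recql5, a helicase of the RecQ family, had an estimate of -0.40 ± 0.18 (adjusted p = 0.131). Eme2, the other partner of MUS81, had -0.38 ± 0.19 (adjusted p = 0.185).

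Other repair pathways differed from this in their counts. In mismatch repair 4 of 7 rose (median 0.75), led by Msh6 (0.84 ± 0.11) and Msh3 (1.29 ± 0.18). In base excision repair 4 of 17 rose and 0 fell by edgeR (median 0.26), against 7 and 1 with limma-voom, 4 and 0 with DESeq2, and 8 and 2 at an unadjusted p below 0.05, with the glycosylases Tdg (0.65 ± 0.14) and Mbd4 (0.83 ± 0.22) at the lowest p. Nucleotide excision repair had 1 higher and 3 lower of 19 (median -0.13), with Ddb1 at -0.47 ± 0.08 and Uvssa at -0.74 ± 0.19. The end joining list had 1 lower of 12, Aptx at -0.65 ± 0.21, and 0 higher by edgeR (median -0.025). In this list 2 were higher at an unadjusted p below 0.05 and 1 with DESeq2 and with limma-voom. The end-joining polymerase gene Polq, which rose, was counted in the wider list above, as were Rif1 and Trp53bp1. The counts of both lists depend on that assignment. The Ku subunit Xrcc5 stood at 26.8 ± 8.93 CPM in DMSO and 41.7 ± 8.09 CPM under sal003 (0.64 ± 0.23, edgeR adjusted p = 0.0598). Over all tested genes 10.6% rose and 12.2% fell by edgeR. Of these 15816 genes DESeq2 called 1823 higher and 2117 lower, and limma-voom 2169 and 2424. At an unadjusted p below 0.05 by edgeR, 2444 were higher and 2600 lower. The few calls in nucleotide excision repair and end joining are not read as shifts of those pathways. These lists are short, they were compared by counts and medians only, and the differences between lists were not tested.

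**Figure D5:**
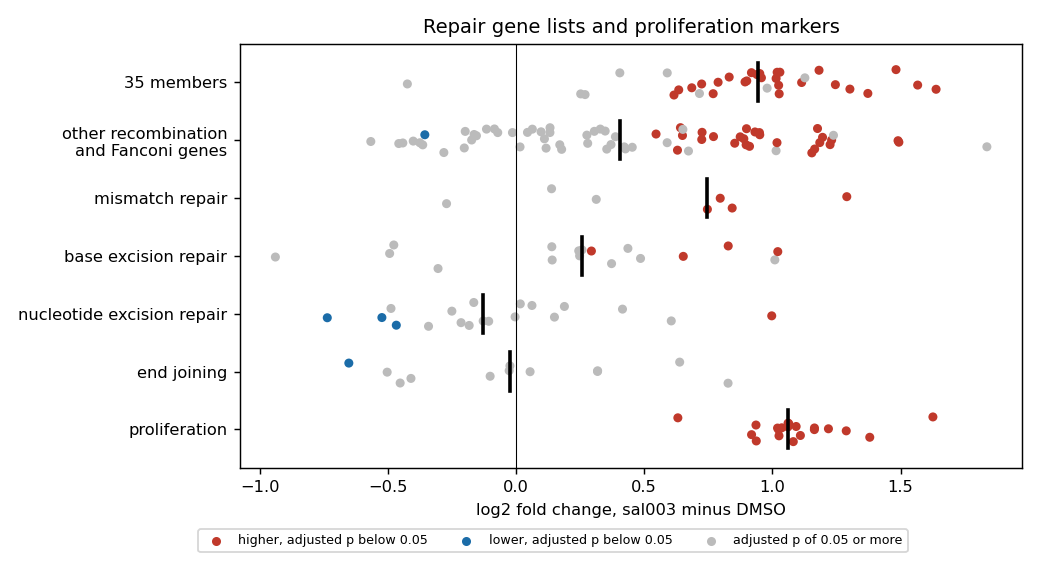
Log2 fold change (x axis, sal003 minus DMSO) of each tested gene in 6 repair lists and the proliferation list, red where higher, blue where lower and grey where adjusted p was 0.05 or more, with a black bar at each median. The medians run from -0.13 for nucleotide excision repair through 0.40 for other recombination and Fanconi genes to 0.94 for the 35 members and 1.06 for the proliferation list.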

How the data were processed

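Cultured-cell RNA was sequenced as 8 ribosome-depleted, stranded SMARTer libraries, per the labels' protocols. The authors deposited whole-number counts per gene over exons. Trimmomatic 0.32, STAR 2.3.0e, featureCounts 1.4.4 and mm10 are named in the submitters' processing notes. No source used here gives the strand setting or the handling of shared exons, so genes with shared exons are uncertain. After Rad54b and Fancc the largest shares of exon bases were in Fanci (15.95%), Rad54l (15.4%), Fancl (13.7%), Eme1 (10.7%) and Fanca (10.5%). These are shared with genes on the opposite strand. One label gives the sal003 dose as 10 mM, and 10 µM, given by the others, is used. Of counts from 1 to 20, 80.5% in DMSO and 80.2% in sal003 were even, so counts divided by 2 were an alternative. No pair of replicates agreed within counting noise (chi-square per degree of freedom at least 24.3). Counts carry no molecular identifiers, so depth covers counting error only.

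In R 4.3.3, edgeR 4.0.16 (filterByExpr with minimum count 10, TMM, robust quasi-likelihood fit, condition as the only term) compared sal003 with DMSO over all genes, two-sided, with Benjamini-Hochberg adjustment and a threshold of 0.05. SE is the log2 fold change over the square root of F. CPM are TMM-scaled. The fit was tested on simulated data. Alternatives used other scaling, filters, thresholds and libraries, DESeq2 1.42.0, limma 3.58.1 and a replicate block. Exon lengths and coordinates are from GENCODE M21 (mm10). Members and lists were chosen with earlier results of these data known. All 35 members are named. Of the wider list (71 of 78 symbols matched), the 6 lowest p and 3 of opposite sign are named, and of each other repair list the 2 lowest p. Some genes of these lists are not reported here by name.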

Additional observations from a re-analysis of the deposited data

Results flagged for a closer look

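In 4 of the 70 groups of 4 libraries (35 members in 2 conditions) 1 library lay far from the other 3, as judged by its gap over the group's range; chance flags about 1 in 20 groups. Wrn stood at 11.98 CPM in DMSO replicate 1 and at 16.8 to 17.8 CPM in the other DMSO libraries. Rad51c was flagged in both conditions, at 9.39 CPM in DMSO replicate 4 against 6.05 to 6.35 CPM, and at 16.2 CPM in sal003 replicate 1 against 9.75 to 10.1 CPM. Fancm stood at 17.3 CPM in DMSO replicate 2 against 34.1 to 37.0 CPM.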

How the results depend on the processing

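The count of 27 members higher was 25 to 28 with DESeq2 size factors, upper-quartile scaling, no filter, a filter of 10 CPM, DESeq2, limma-voom, counts divided by 2 and removal of the most abundant genes, and 22 to 28 when 1 library was left out. It was 20 at an adjusted p below 0.01. Against a change of at least 1.5-fold it was 14, with 9 genes of the wider list higher and 0 lower, and 266 genes higher and 737 lower of all tested, against 1671 and 1923 with no minimum change. At an adjusted p below 0.01, 984 of all tested genes were higher, and 0 of the wider list were lower. With the replicate number as a block 28 members were higher. Deviations of same-numbered libraries correlated at -0.0106, 0.0664, 0.0547 and 0.00585, and not every library correlated best with its own number. Correlations this weak cannot decide whether the numbers pair the libraries. No member's estimate changed sign under any setting run. A mean below 10 CPM in DMSO was found for 10 of the 35 members, 4 that rose and 6 of the 8 that did not pass; the part of depth was not tested.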

Other observations

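The members varied less between libraries in sal003 than in DMSO. Their median coefficient of variation was 22.7% in DMSO and 13.9% in sal003, against 25.6% and 17.9% over all tested genes, and it was larger in DMSO for 29 of the 35, as it was for 70.2% of all tested genes. DMSO replicate 2 was the lowest DMSO library for 14 members, among them Rad50, Nbn, Exo1, Palb2 and Fancm, and the highest for 9, among them Bard1, Chek2, Fanca and Fancg. Replicate 3 was the lowest sal003 library for 14 members. The 35 genes together took 0.0759% to 0.0866% of all counts in DMSO and 0.168% to 0.180% in sal003.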
